A study of Mus musculus with 48 samples.

Results

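The question addressed here was whether the efficiency with which kidney mRNAs are translated differs between the beginning and the end of the light phase. Kidneys came from male C57BL/6JRj mice of 11 to 12 weeks kept under 12 h of light and 12 h of dark with free access to food, and zeitgeber time (ZT) counts the hours from lights-on. The dawn group consisted of the 6 pools of ZT22, ZT00 and ZT02 and the dusk group of the 6 pools of ZT10, ZT12 and ZT14, with 2 replicate pools per timepoint and the kidneys of 2 mice in each pool. Each pool had 1 library of ribosome-protected mRNA fragments (RPF-seq) and 1 RNA-seq library, so that 24 of the 48 libraries and 12 of the 24 pools of the series entered the comparison. No mouse was mutant or drug-treated, and the groups differed by label in time of day alone. Translation efficiency (TE) of a gene in a pool was the ratio of its RPF-seq to its RNA-seq value, (RPF RPKM + 0.1)/(RNA RPKM + 0.1), where RPKM is the number of reads per length of coding sequence and library depth. Of the 12423 genes with values in both assays, the 11863 whose median reached 0.5 RPKM in RPF-seq and in RNA-seq were tested. A fold change below is always one of TE, and a log2 difference is always dawn minus dusk.

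TE reports how many ribosomes sit on an mRNA relative to how much of that mRNA there is, and it is mostly set at the step of translation initiation. A well known group under such control are mRNAs with a 5′ terminal oligopyrimidine (TOP) tract, which encode ribosomal proteins and translation factors and whose initiation depends on the growth- and nutrient-sensing kinase complex mTORC1. Other mRNAs respond through upstream open reading frames, iron-responsive elements or feedback by polyamines. Feeding, body temperature and hormone levels of mice change around the light-dark transitions, which makes dawn and dusk natural times to compare.

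The TE difference was estimated with a narrow interval in most genes. The reads recovered from the deposited values came to between 14.088 M and 29.771 M (mega-reads) per RPF-seq library at dawn and between 13.828 M and 25.188 M at dusk. In RNA-seq they came to between 8.971 M and 19.057 M at dawn and between 10.659 M and 28.791 M at dusk, so the groups overlapped in depth. The 95% interval of the TE difference lay wholly within 1.5-fold of no change in 9906 of the 11863 genes (83.5%). This held for 50.4% of the 25% of genes with the fewest reads and for 98.0% of the 25% with the most. These intervals are not adjusted for the number of genes, and a modest difference could miss the FDR below even with many reads. Dnajb9, 1.35-fold higher at dusk on at least 1153 RPF reads, had an FDR of 0.162. All 10 kidney markers, among them the proximal tubule genes Slc34a1 and Lrp2, the thick ascending limb gene Umod and the collecting duct gene Aqp2, were measured in every library, and none of the 6 adrenal markers was present in both assays. Because whole organs were pooled, fewer cells of a type and less RNA per cell of that type cannot be told apart in any value below.

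Very few genes passed the test between dawn and dusk. Only 3 genes passed an FDR of 0.05 in limma (0.0253% of those tested), namely Fam117a, Hoxb7 and Evl. All 3 were higher at dawn, and all 3 changed by at least 1.5-fold, so the percentage with both criteria was 0.0253% as well. No gene was higher at dusk at this threshold, although 775 genes were so at an unadjusted p under 0.05 (6.53% of those tested) beside 810 that were higher at dawn (6.83%), together 1585 or 13.4%. The 6 dawn and the 6 dusk values did not overlap in 126 genes (1.06%), of which 54 were higher at dawn and 72 at dusk. Across all genes the median log2 difference was -0.009, the interquartile range was -0.117 to 0.108, and 153 genes moved by 1.5-fold or more in either direction. The same fit to the remaining 12 pools, midday (ZT04, ZT06, ZT08) against midnight (ZT16, ZT18, ZT20), called 1218 genes (10.3%), 1161 without ZT04 replicate 2 and 346 when a trend with the GC content of the coding sequence was removed from each pool. This pool stood apart, with an SD of its log2 TE deviations of 0.496 against 0.225 to 0.39 in the other pools. The difference between the 2 comparisons was not itself tested.

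**Figure D1:**
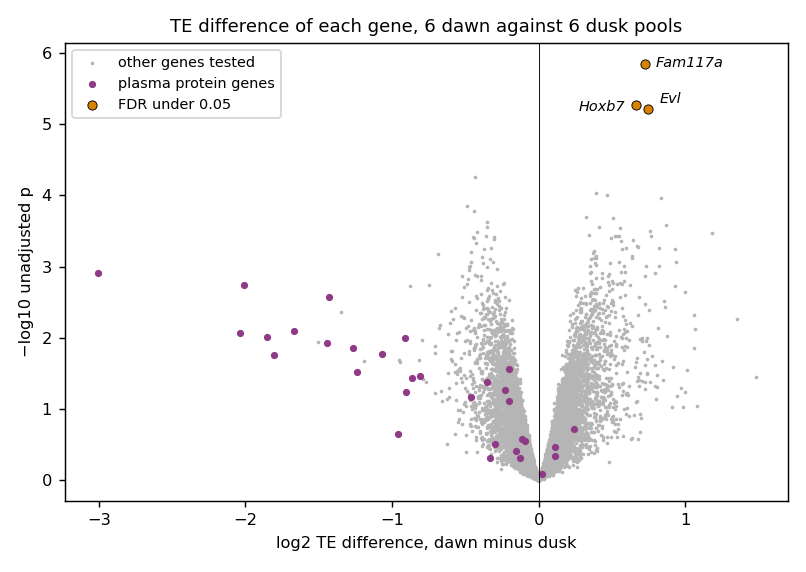
TE difference (dawn minus dusk, log2, x axis) against the −log10 of its unadjusted p (y axis) for each of the 11863 genes, from 6 dawn and 6 dusk pools. The 3 genes past the FDR of 0.05 stand on the right, and the 14 genes that were at least 2-fold higher at dusk on the left include 11 of the 31 plasma protein genes drawn in purple.

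Hoxb7 encodes a homeobox transcription factor known from the ureteric bud and the collecting ducts that arise from it. It lies on chromosome 11 (GRCm38, 96286623 to 96290162, plus strand). Its TE ran from 1.29 to 1.98 in the dawn pools with a median of 1.63, and from 0.945 to 1.10 in the dusk pools with a median of 1.04. Every dawn pool was above every dusk pool, and the SD on the log2 scale was 0.08 at dusk and 0.20 at dawn (n = 6 each). TE was 1.58-fold higher at dawn (95% interval 1.38 to 1.81, log2 difference 0.66, SE 0.09, FDR 0.0238). High values were also found outside dawn, and the geometric timepoint means of 1.61 at ZT16, 1.87 at ZT18 and 1.53 at ZT20 stood beside the 1.61, 1.85 and 1.44 of ZT22, ZT00 and ZT02. The low values were those of the second part of the light phase and the first hours of darkness, from 1.12 at ZT08 to 1.01 at ZT14. Between 148 and 453 RPF reads and between 86 and 259 RNA reads stood behind each value.

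Evl encodes a member of the Ena/VASP family, which promotes the elongation of actin filaments. The gene is on chromosome 12 (GRCm38, 108554720 to 108688516, plus strand). Its TE was 0.551 to 0.744 at dawn (median 0.631) and 0.305 to 0.431 at dusk (median 0.379), without overlap. The fold was 1.68 (95% interval 1.44 to 1.96, log2 difference 0.75, SE 0.10, FDR 0.0238). Its timepoint means fell from 0.682 at ZT02 to 0.345 at ZT14 and were back at 0.633 at ZT22, but no rhythm was fitted. Replicates could lie far apart, with 0.501 and 0.926 at ZT04, where the higher value is that of ZT04 replicate 2. Evl rested on the fewest reads of the 3 genes, 20 to 90 in RPF-seq and 47 to 127 in RNA-seq.

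Fam117a, on chromosome 11 (GRCm38, 95337018 to 95381872, plus strand), had the smallest p of all genes. Its TE was 0.650 to 0.857 at dawn (median 0.787) and 0.416 to 0.538 at dusk (median 0.457), again without overlap. TE was 1.65-fold higher at dawn (95% interval 1.45 to 1.88, log2 difference 0.72, SE 0.09, FDR 0.0166). The timepoint means were highest at ZT00 with 0.822 and lowest at ZT12 with 0.457. Each value rested on 57 to 127 RPF reads and 45 to 236 RNA reads.

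**Figure D2:**
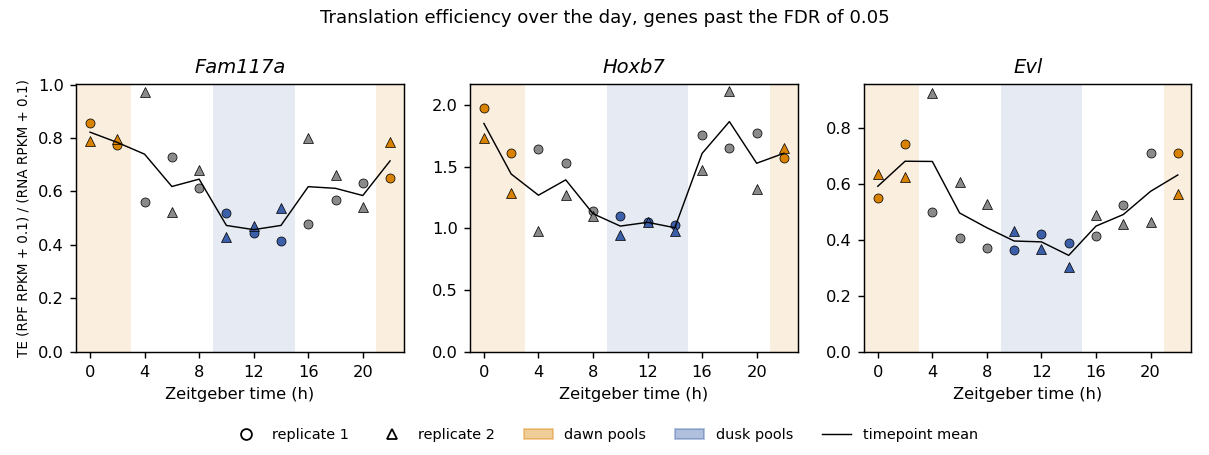
TE (y axis, linear, from 0) of Fam117a, Hoxb7 and Evl at each zeitgeber time (x axis, hours), with circles for replicate 1, triangles for replicate 2 and a line through the timepoint means. The dawn pools (orange) and dusk pools (blue) do not overlap in any of the 3 genes, with dusk medians of 0.457, 1.04 and 0.379.

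The calls depended on single pools. When each of the 12 pools was left out in turn, Fam117a passed in 7 of 12 fits and Hoxb7 and Evl in 3 each, and no gene passed without ZT00 replicate 2, ZT02 replicate 1, ZT12 replicate 1, ZT12 replicate 2 or ZT14 replicate 1. The adjusted p of these fits lay between 0.00835 and 0.0803 for Fam117a, between 0.00595 and 0.0950 for Hoxb7 and between 0.0316 and 0.0950 for Evl, and the log2 differences stayed positive in each of them. In pools that had no part in the calls, ZT20 and ZT04 against ZT08 and ZT16, the difference had the same sign in all 3 genes, with log2 values of 0.48 in Evl, 0.06 in Fam117a and 0.05 in Hoxb7. Without ZT04 replicate 2 these values were 0.295, -0.131 and 0.222, so that the sign of Fam117a turned. Of the 1585 genes at an unadjusted p under 0.05, 79.7% had the same sign in these pools (78.2% without that pool), beside 63.9% of all genes tested (62.5%). No trend with GC content was removed from these values, and its part in the shared signs was not tested.

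With the 6 timepoints of the compared pools as groups, no gene passed and all 3 calls were lost, while 1658 genes had an unadjusted p under 0.05. The p-values of this fit measure the spread between the replicate pools of a timepoint. A change of TE between the timepoints of a group is no part of that spread. The spread of TE could also be taken from all 24 pools, with the 12 timepoints as groups, and the same then holds. In that fit 21 genes passed (0.177%), 11 higher at dawn and 10 higher at dusk, and of the 3 genes above only Hoxb7 was among them (FDR 0.0438, against 0.0743 for Fam117a and 0.0885 for Evl). Without ZT04 replicate 2 the number was 26, with 15 higher at dawn, Fam117a and Hoxb7 included, and 11 at dusk. Of the genes higher at dusk in the fit to all 24 pools, 6 of the 10 (Fgb, Hpx, Mup20, Mup3, Ahsg and Alb) encode plasma proteins that the liver secretes. The other 4 were Nid2, which encodes a basement membrane protein, Dnajb9, an endoplasmic reticulum co-chaperone, Itga8, the integrin subunit alpha 8, and Rpl22l1, a paralog of a ribosomal protein. Those higher at dawn were Faap20, Zfp687, Kansl3, Pqbp1, Tchp, Glis1, Kcnn1, Hoxb7, Prpf31, Otulin and Tprn. Passing in this fit did not require all timepoints of a group to differ. Pqbp1 had 1.29 and 1.22 in the ZT22 pools against 1.30 to 1.78 at dusk (FDR 0.346 in the main fit). Fgb had 1.82 and 1.44 in the ZT10 pools against 1.27 to 2.31 at dawn (0.288).

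None of the 17 genes that followed the called ones in order of p passed the FDR (all at 0.162), and their values are descriptions. Of these, 11 had higher values at dawn and 6 at dusk, and in 12 the groups did not overlap. The sign was the same in all 17 in the pools left out of the comparison, with and without ZT04 replicate 2. Nid2 had a TE of 0.794 to 0.960 at dawn (median 0.848) and of 1.04 to 1.53 at dusk (median 1.22), a ratio of 1.40 of dusk to dawn (95% interval 1.22 to 1.61). Dnajb9 had 1.74 to 2.05 at dawn (median 1.97) and 2.49 to 2.94 at dusk (median 2.55), a ratio of 1.35 (1.21 to 1.52), with at least 1153 RPF reads in every pool. For Rpl22l1 the values were 0.717 to 0.939 at dawn and 0.985 to 1.26 at dusk, and the ratio was 1.36 (1.2 to 1.55). In these 3 genes each dusk pool was above each dawn pool. The ratio was 1.27 (1.15 to 1.42) for Itga8 and 1.28 (1.15 to 1.43) for Alcam, a cell adhesion molecule, also without overlap. It was 1.34 (1.18 to 1.53) for the F-box gene Fbxo36, whose groups overlapped.

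Among the 11 of these genes with higher values at dawn, the largest ratio of dawn to dusk belonged to Hist2h3b, with 2.27 (95% interval 1.57 to 3.28). It encodes a histone H3 that near-identical copies share, its reads could be split among them by the counting, and it rested on 6 to 28 RPF reads and 5 to 32 RNA reads, so the value is uncertain. The potassium channel gene Kcnn1 had TE values of 0.202 to 0.376 at dawn and 0.124 to 0.179 at dusk, a ratio of 1.78 (1.42 to 2.25) on as few as 9 RPF reads. The interferon-inducible Epsti1 had a ratio of 1.82 (1.40 to 2.37) with overlapping groups. Ratios were 1.42 (1.22 to 1.65) for Ppcdc, an enzyme of coenzyme A synthesis, 1.25 (1.14 to 1.37) for the organic anion transporter gene Slco3a1, 1.27 (1.14 to 1.41) for the splicing factor gene Prpf31 and 1.47 (1.24 to 1.74) for Ufsp1, a protease of the ubiquitin-like modifier UFM1. The remaining 4 were Aamdc with 1.31, Mea1 with 1.38, Mfsd4b3 with 1.33 and the gene ENSMUSG00000059309, for which the tables used give no symbol, with 1.69.

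The most extreme differences were found in plasma protein genes. After the values were seen, a list of 33 genes for proteins that hepatocytes secrete into blood was written, of which 31 could be tested, and nothing is supported by a list chosen in this way. None of its members passed the FDR (smallest 0.189), 27 were lower at dawn, and the median log2 difference was -0.806 against -0.009 over all genes. With an unadjusted p under 0.05, 16 members were higher at dusk and 0 at dawn, beside the 6.53% and 6.83% of all genes. At least 2-fold higher TE was found in 8 genes at dawn and in 14 at dusk. Of the 14, 11 were on the list, and 2 of the others, Fabp1 and Ces1c, are also strongly expressed by hepatocytes. Mup3, a major urinary protein gene, had a TE of 0.485 to 8.47 at dawn (median 1.94) and of 3.06 to 61.9 at dusk (median 16.8), a ratio of 8.05 (95% interval 2.68 to 24.18) that rested on as little as 1 RNA read. Albumin (Alb) had 0.968 to 5.33 at dawn (median 2.46) and 1.97 to 8.76 at dusk (median 7.15), a ratio of 2.41 (1.23 to 4.70) on at least 921 RPF and 156 RNA reads. Hemopexin (Hpx) had 0.866 to 3.43 at dawn and 2.30 to 22.4 at dusk, a ratio of 4.03 (1.85 to 8.74) on as few as 5 RNA reads. In all 3 of these genes the groups overlapped, and the lowest dusk value was that of ZT10 replicate 1. Major urinary protein genes and the Serpina1 and Serpina3 families hold near-identical copies that can share reads, so their single values are uncertain.

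Within the dusk group the plasma protein list was high at ZT12 and in ZT14 replicate 2, and not at ZT10. The median deviation of the list from its mean over the 12 pools was -0.18 and -0.08 (log2) in the ZT10 pools, 0.88 and 0.66 at ZT12, and 0.19 and 0.99 at ZT14. In the dawn pools this deviation ran from -0.76 to 0.19, so ZT14 replicate 1 was no higher than the highest dawn pool. It was 0.46 and 0.96 in the ZT16 pools, which belong to neither group. The list was present in both assays in every library, with summed values of 581 to 995 RPF RPKM at dawn and 496 to 1310 at dusk, and of 317 to 631 RNA RPKM at dawn and 297 to 660 at dusk, and no member was at 0. Much of the RNA sum came from Ttr, with 107 to 379 RPKM at dawn and 116 to 420 at dusk. RNA at dusk was 0.186 to 0.837 RPKM for Hpx, 0.0928 to 2.37 for Mup3 and 4.72 to 16.3 for Alb. The lowest of these values are close to the 0.1 that was added. Some members were near no difference, and these are named after their values were seen. The log2 difference was 0.11 for transthyretin (Ttr, 95% interval -0.13 to 0.35), 0.11 for Apoh (-0.21 to 0.43), 0.02 for Serpina1d (-0.19 to 0.24), and it was -0.20 for Fga (-0.37 to -0.03). The list's median moved to -0.202 when the RPKM minimum was raised to 2, and to -0.153 for genes with at least 20 reads in each library. Without single pools it ranged from -0.996 to -0.527. Whether reads from liver tissue or from the liver libraries of the study contributed to these values was not tested; the values may therefore not be those of kidney translation. The liver libraries were not analysed here.

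**Figure D3:**
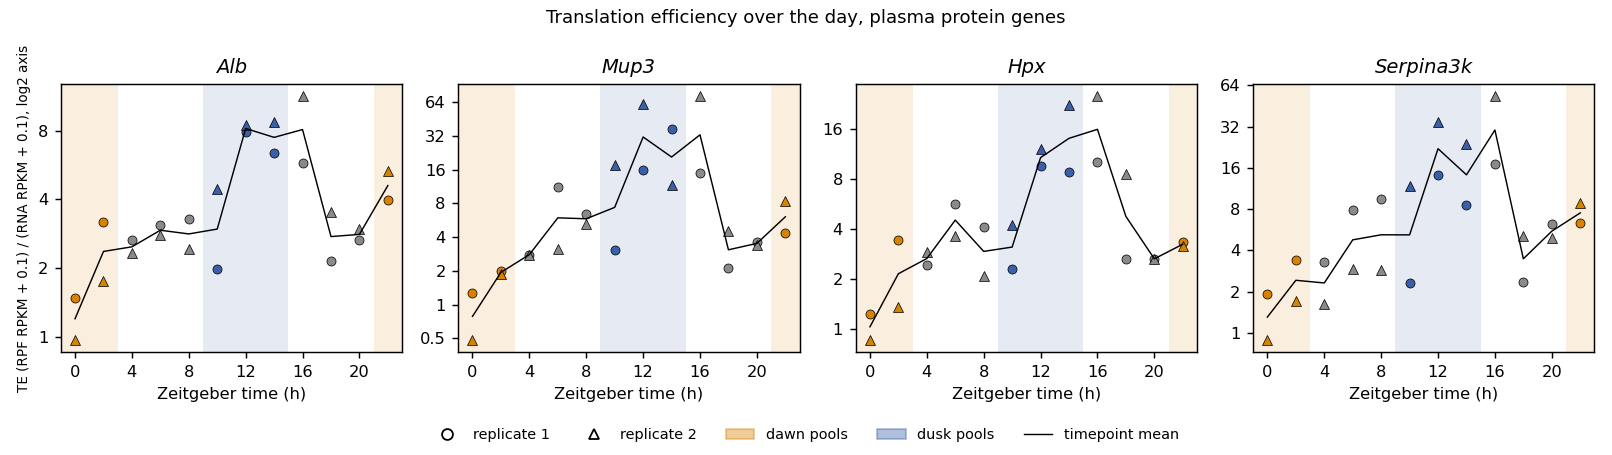
TE (y axis, log2-spaced) of Alb, Mup3, Hpx and Serpina3k at each zeitgeber time (x axis, hours), circles for replicate 1, triangles for replicate 2, line through the timepoint means. Timepoint means are highest between ZT12 and ZT16 and lowest at ZT00, where the replicate 2 pool gave 0.968 for Alb and 0.485 for Mup3.

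No ribosomal protein gene and no other TOP mRNA passed the FDR in the comparison of the 12 pools. With the spread taken from all 24 pools Rpl22l1 passed (FDR 0.0438), and without ZT04 replicate 2 Rpl6 did as well, with a log2 difference of 0.45. Of 78 ribosomal protein genes tested, 0 passed the FDR, 2 were higher at dawn and 4 at dusk with an unadjusted p under 0.05 (6.83% and 6.53% of all genes), and the median log2 difference was -0.056. The 95% interval lay within 1.5-fold in 66 of the 78, beside 83.5% of all genes. Their median TE in a pool was 0.509 to 0.643 at dawn (median 0.587) and 0.422 to 0.691 at dusk (median 0.632), so the groups overlapped. The lowest dusk value, 0.422, was that of ZT12 replicate 1, and without this pool the list's median difference was -0.192, the lowest over the single pools left out. The sign was not stable, since the median was -0.253 without the replicate 1 pools, 0.101 without the replicate 2 pools and 0.271 for ZT00 against ZT12 alone. Many ribosomal protein genes have processed pseudogenes that can share reads with them, so single values are uncertain.

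For 18 other TOP mRNAs, which encode elongation factors, subunits of initiation factor 3 and the like, the median difference was -0.104, with 0 past the FDR and 3 higher at dusk at an unadjusted p under 0.05 (6.53% of all genes). These were Tpt1 (log2 difference -0.55, SE 0.23), Pabpc1, the poly(A)-binding protein gene (-0.41, SE 0.19), and Eef1b2 (-0.36, SE 0.16), with FDR values of 0.339, 0.373 and 0.352. They are named after their values were seen. Initiation and elongation factors as a whole (64 genes) had a median of -0.063, aminoacyl-tRNA synthetases (40 genes) of -0.028 and components of the mTORC1 pathway (27 genes) of 0.031, with no call in any of them.

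The tract itself is shown for 4 ribosomal protein genes, those with the smallest p among the members whose RefSeq start (GRCm38.p6) opens with C and at least 4 further pyrimidines (C or T). Of the 57 members with a RefSeq start, 12 had such a tract at the start used here. Each line gives the first 25 transcribed bases of the sense strand, 5′ to 3′, and the capitals mark the unbroken run of pyrimidines.
Rpl35a: CTCTTTCCgccatcttggcgcctgt
Rplp2: CTTTCgccgccggacgccgccgagg
Rpl35: CTCTTTCTCTCgaaccaggctgctt
Rpl28: CTCTTTCCgtctccggccgccatag
They are at chr16:33056482-33056506 (plus strand), chr7:141447651-141447675 (plus), chr2:39005107-39005131 (minus) and chr7:4792965-4792989 (plus). All 4 begin at the transcript start that RefSeq gives for the gene. The differences went in both directions, with log2 values of -0.20 for Rpl35a (95% interval -0.41 to 0.01), -0.52 for Rplp2 (-1.17 to 0.13), 0.18 for Rpl35 (-0.08 to 0.43) and 0.19 for Rpl28 (-0.12 to 0.49), and none passed the FDR. A comparison of the share of genes with a tract was void, since the RefSeq table used here gave a start for 9337 of the 11863 genes (78.7%), under the 80% needed.

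Core clock genes form the transcriptional feedback loop that times daily rhythms. For most of them, as for most genes, the 95% interval of the difference between dawn and dusk lay within 1.5-fold. All 12 were tested, 0 passed the FDR (smallest 0.289), and the log2 differences ran from -0.28 to 0.13. At an unadjusted p under 0.05 there were 2, beside 13.4% of all genes. The interval lay within 1.5-fold in 11 of the 12, beside 83.5% of all genes. For Arntl, the activator of the clock loop, TE was 0.605 to 0.857 at dawn and 0.410 to 0.927 at dusk (log2 difference 0.08, 95% interval -0.29 to 0.46). For its partner Clock the difference was -0.03 (-0.28 to 0.21). The repressors gave -0.10 (-0.42 to 0.21) for Per1, 0.06 (-0.16 to 0.29) for Per2, 0.13 (-0.22 to 0.47) for Per3, -0.11 (-0.31 to 0.08) for Cry1 and -0.04 (-0.22 to 0.15) for Cry2. The nuclear receptor genes gave -0.18 (-0.53 to 0.17) for Nr1d1, -0.28 (-0.50 to -0.06) for Nr1d2 and -0.23 (-0.44 to -0.01) for Rora. Npas2 was the exception in precision, with -0.12 (-0.79 to 0.54), since its values rested on as few as 2 RPF and 7 RNA reads. With a pseudocount of 1 in place of 0.1, Npas2 (log2 difference -0.75, FDR 0.0167) and Per3 (0.72, FDR 0.00465) passed. Both had RPF levels under this 1 in one of the groups, so these 2 differences depend on the pseudocount. RPF was 0.044 to 0.21 RPKM at dusk for Npas2 and 0.277 to 0.826 at dawn for Per3. RNA was 8.99 to 11.3 RPKM at dawn and 0.167 to 0.819 at dusk for Npas2, and 2.15 to 2.81 against 11.1 to 14.9 for Per3.

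The study itself named 18 genes as examples of translational rhythms or phases. Rps25, Rpl23a, Deaf1, Mxi1 and Ftl1 were examples from liver, and the others were chosen on these samples, so that their direction is no independent evidence. None of the 18 passed the FDR (smallest 0.239), and in none were the groups apart, beside 1.06% of all genes. An interval within 1.5-fold was found in 12, beside 83.5% of all genes. Dawn against dusk is a single axis of the day, so a TE rhythm that peaks near midday or midnight can go unseen here. Actg1, with an interval within 1.5-fold, had geometric timepoint means of 1.98 at ZT06 and 3.53 at ZT20. Ddb2, a DNA damage recognition factor, had a TE of 0.534 to 0.868 at dawn (median 0.779) and 0.777 to 1.62 at dusk (median 1.12), a ratio of dusk to dawn of 1.5 (95% interval 1.15 to 1.95). Nampt, the rate-limiting enzyme of NAD salvage, had 1.11 to 1.33 at dawn and 1.23 to 1.65 at dusk, a ratio of 1.19 (1.05 to 1.34). Tma7 had 0.425 to 1.23 at dawn and 0.303 to 0.804 at dusk, with a ratio of dawn to dusk of 1.48 (1.01 to 2.17). The intervals of the other 15 included no difference. Their log2 differences were -0.23 for Rps25, 0.03 for Rpl23a, -0.17 for Actg1, 0.37 for Hoxd3, 0.30 for Deaf1, 0.25 for Cgn, -0.19 for Dnajb4, 0.17 for Ftl1, -0.16 for Etnk2, -0.10 for Abcd4, -0.10 for Hlf, -0.09 for Slc5a6, 0.07 for Mxi1, -0.06 for Tardbp and 0.06 for Lypla2.

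No other gene list held a member called in the comparison of the 12 pools. With the spread from all 24 pools Zfp687 of the Zfp genes, Dnajb9 of the endoplasmic reticulum chaperones and Nid2 of the extracellular matrix genes passed. The largest median shift was that of the 12 proteins made in mitochondria, whose log2 difference was -0.269 with 10 lower at dawn, among them the cytochrome c oxidase genes mt-Co2 (-0.44, SE 0.16, FDR 0.27) and mt-Co3 (-0.47, SE 0.17, FDR 0.284). Their median TE was 0.0887 to 0.136 at dawn and 0.0794 to 0.165 at dusk, with both dusk extremes outside the dawn range. The 90 nuclear genes of the respiratory chain (-0.005) and the 74 mitochondrial ribosomal protein genes (0.030) were close to the median of all genes. Immediate early genes had the largest positive median, 0.195 over 15 genes, with 3 higher at dawn at an unadjusted p under 0.05 (6.83% of all genes), namely Junb (0.56, SE 0.12, FDR 0.162), Klf4 (0.41, SE 0.14) and Klf2 (0.42, SE 0.17). The 11 genes of polyamine synthesis and its feedback had a median of -0.172 and went both ways, with Azin2 at 0.81 (SE 0.26, FDR 0.25) and Oaz2, an antizyme, at -0.35 (SE 0.13, FDR 0.285).

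Other routes of translational control and kidney functions were close to the median of all genes. The median log2 difference was -0.037 for iron-responsive element mRNAs (10 genes), 0.054 for genes with regulatory upstream open reading frames (12), -0.020 for selenoproteins (19), 0.039 for the cold-inducible Cirbp and Rbm3, 0.009 for SR and hnRNP splicing factors (29) and -0.057 for deadenylation and poly(A) factors (26). It was -0.002 for proteasome subunits (37), -0.024 for cytosolic heat shock chaperones (21), 0.010 for endoplasmic reticulum chaperones (18) and 0.049 for the actin cytoskeleton and its regulator Srf (27). Tubular transporters and channels (44 genes, -0.048), cholesterol synthesis (22, 0.009), fatty acid oxidation (25, -0.017) and extracellular matrix (24, -0.027) had medians between these values, and NRF2 targets with metallothioneins (13) had 0.077. In the transporters 43 of 44 intervals lay within 1.5-fold, and in cholesterol synthesis all 22, beside 83.5% of all genes. The 19 core clock and clock output factors had -0.071, the 10 kidney markers -0.071, 9 blood and immune markers 0.069, 4 adipocyte markers -0.140, and the 287 zinc finger genes of the Zfp series -0.067.

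**Figure D4:**
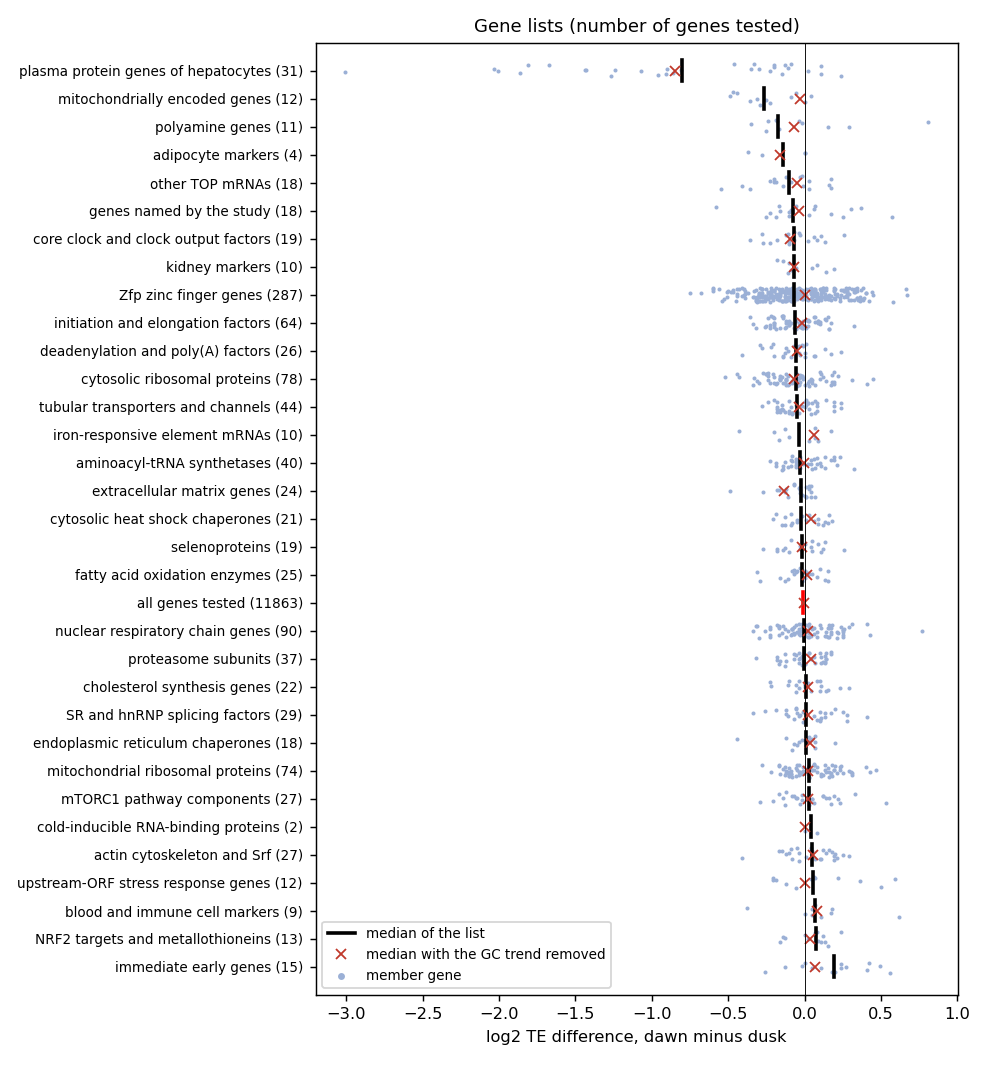
Log2 TE difference (dawn minus dusk, x axis) of each tested member (points, spread vertically for legibility) of 32 gene lists and, as a red bar, the median over all genes. Black bars are list medians and crosses the medians after the GC trend of each pool was removed. Apart from the plasma protein genes at -0.806, no median lies beyond -0.269 or 0.195.

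The TE difference moved with the base composition of the coding sequence (CDS). Over the 11784 genes with a CDS in GENCODE vM21 (99.3% of those tested), the Pearson correlation of the log2 difference with GC content was 0.467, a description across genes that share the same 12 pools. In the 2357 genes with the lowest GC content (32.3% to 47.2%) the median difference was -0.129, with 408 genes higher at dusk and 6 higher at dawn at an unadjusted p under 0.05. In the 2357 with the highest (58.0% to 76.7%) the median was 0.115, with 11 higher at dusk and 409 higher at dawn. All genes higher at dawn at that p had a median GC content of 58.1%, those higher at dusk 46.8% and all genes tested 52.9%. The called genes had 63.6% (Fam117a), 60.8% (Hoxb7) and 57.7% (Evl), while Dnajb9 and Rpl22l1 had 39.8% and 39.9%.

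The dependence on GC content differed from pool to pool rather than cleanly between the groups. The slope was taken on the deviation of each gene's log2 TE from its own mean over the dawn and dusk pools. Its sign is therefore relative to that mean and does not give the dependence of TE itself on GC. Per 10 percentage points of GC the slope ran from -0.076 to 0.15 at dawn (mean 0.077 ± 0.080, SD, n = 6). At dusk it ran from -0.283 to 0.177 (mean -0.077 ± 0.153, SD, n = 6). The difference of 0.153 did not exceed the spread between pools in a two-sided exact permutation test (p = 0.0563), a test chosen after the slopes were seen. ZT00 replicate 1 had a slope of -0.076 among dawn pools that were otherwise positive, and ZT12 replicate 2 one of 0.177 among dusk pools that were otherwise negative, so the 2 replicate pools of ZT12 were the highest and the second lowest of dusk.

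When a smooth GC trend was removed from each pool, an alternative added after the data were seen, 0 of 11784 genes passed the FDR and the smallest value was 0.0865. At an unadjusted p under 0.05 there remained 1095 genes (9.29%), 568 higher at dawn and 527 at dusk, and 57 genes had groups that did not overlap. Of the genes named above, Nid2, Mfsd4b3, Fam117a and Evl were at that smallest FDR, with log2 differences of -0.55, 0.48, 0.55 and 0.67, and Hoxb7 was at 0.292 with 0.53. Dnajb9 went from -0.44 to -0.22 (FDR 0.507) and Rpl22l1 from -0.44 to -0.23 (FDR 0.495), and in both the groups then overlapped. The median of the mitochondrially encoded genes, whose GC content is 36.7%, went from -0.269 to -0.033, that of the Zfp genes from -0.067 to 0.003 and that of the immediate early genes from 0.195 to 0.067. Others moved away from zero, with the extracellular matrix genes going from -0.027 to -0.133 and the clock and clock output factors from -0.071 to -0.096. The plasma protein genes were as far from zero as before, at -0.851, and the ribosomal proteins at -0.067. The part of base composition in the TE differences of single genes was not tested beyond these values.

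**Figure D5:**
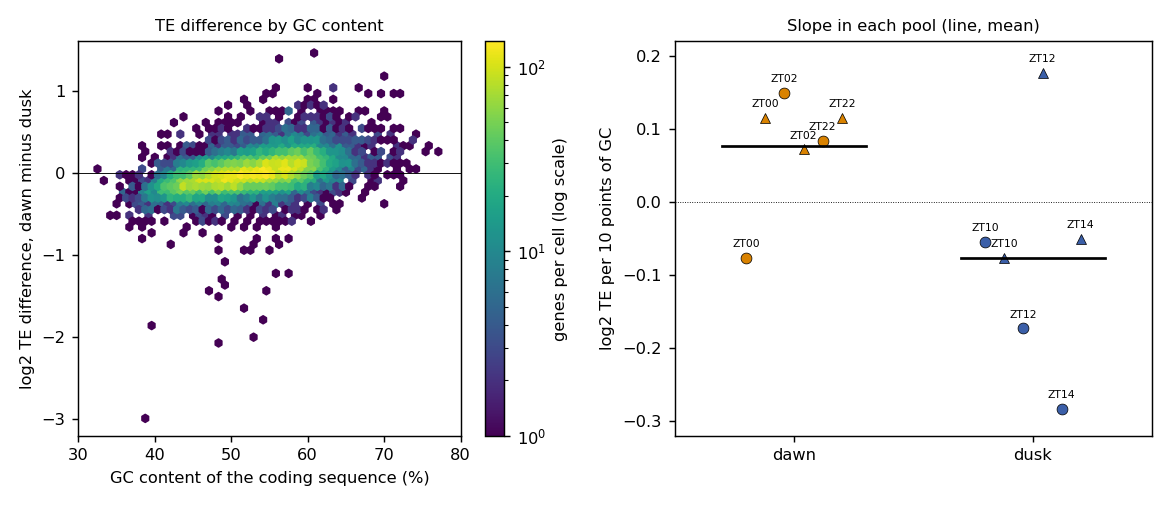
Left, log2 TE difference (dawn minus dusk, y axis) against the GC content of the coding sequence (%, x axis) of 11784 genes, coloured by the number of genes per cell on a log scale. Right, slope per 10 points of GC in each pool (circles replicate 1, triangles replicate 2, lines group means of 0.077 at dawn and -0.077 at dusk). The slope is that of the deviation of log2 TE from each gene's mean over the dawn and dusk pools.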

How the data were processed

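RPF-seq and RNA-seq were made from the same 24 kidney pools. Per the labels and methods, the authors trimmed reads with cutadapt, mapped them with Bowtie2 2.2.1 and TopHat2 2.0.11 to GRCm38.p2, estimated expressed transcript models with Cufflinks 2.2.1, counted reads on coding sequences, and normalised by upper quantiles with edgeR. Each deposited table holds 1 RPKM value per gene. Upper-quantile scaling hides any global change of translation.

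Genes present in both assays (12423, of which 12373 have a symbol) were kept where the median reached 0.5 RPKM in each, 0.1 was added, and log2 TE per pool was compared with limma 3.58.1 in R 4.3.3 (lmFit, eBayes with a variance trend; two-sided, Benjamini-Hochberg over 11863 genes); no count model was used because values are RPKM. Tables were made in Python 3.11.15. Each pool holds 2 mice. The p-values of the main fit measure the spread between the pools of a group, which may in part be technical. This spread also holds any change of TE between the timepoints of a group. Whole reads behind the RPKM steps were recovered for 99.9% of genes in each assay (12410 and 12412 genes, tolerance 0.0001); these recovered totals show depth and counting precision only, and their intervals would cover counting error alone. Members, the 33 gene lists and the tests were chosen with earlier results of these data known. Named genes were those past the FDR, then the smallest p up to 20, members of lists past the FDR, the 18 study genes and 12 clock genes. GC content and gene positions are from GENCODE vM21 (GRCm38), newer than the annotation the authors used. Alternatives covered pseudocounts, RPKM minima, scaling, design, block, pools left out and the GC trend. The fit was tested on simulated data with independent noise in each gene. That simulation held no GC trend shared by genes and no change between the timepoints of a group, so it cannot show how these affect the calls. Liver libraries were not analysed here. The value of 1 clock gene is not reported here.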

Additional observations from a re-analysis of the deposited data

Results flagged for a closer look

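In 7 of the 100 groups of 6 pools examined (50 named genes at dawn and at dusk), 1 pool lay far from the other 5 by Dixon's criterion, which chance alone would meet in about 5% of groups. At dusk, ZT10 replicate 1 was high in Mea1 with a TE of 0.714 (others 0.514 to 0.571) and in Mxi1 with 0.476 (others 0.306 to 0.357). ZT14 replicate 2 was low in Etnk2 with 0.124 (others 0.267 to 0.330), and ZT14 replicate 1 was low in Npas2 with 0.157 (others 0.466 to 0.851), a gene with very few reads at dusk. At dawn, ZT02 replicate 2 was high in Fbxo36 with 1.10 (others 0.863 to 0.925). ZT00 replicate 1 was high in Clock with 0.393 (others 0.264 to 0.298) and low in Nr1d1 with 0.872 (others 1.23 to 1.48). None of these genes passed the FDR with all pools, and without ZT10 replicate 1 Mea1 did (log2 difference 0.525, limma FDR 0.0419).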

How the results depend on the processing

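The number of genes past the FDR was 3, all higher at dawn and at least 1.5-fold, and it was also 3 with a pseudocount of 0.01, no RPKM minimum, median-centred or quantile-normalised TE, no variance trend, or at least 20 reads per library, and 2 with an RPKM minimum of 2. It was 0, with no call in either direction, with timepoints as groups, with ZT00 against ZT12 only, at an FDR of 0.01, with the GC trend removed, and with the GC trend removed together with the replicate block. With all 24 pools it was 21 (11 higher at dawn, 10 at dusk, 11 by at least 1.5-fold), 26 without ZT04 replicate 2 among them (15 higher at dawn, 11 at dusk, 13 by at least 1.5-fold), and with a pseudocount of 1 it was 5, with 1 higher at dusk. Without single pools or 1 replicate series the count, also of genes at least 1.5-fold or higher at dawn, ranged from 0 to 3, and that of genes higher at dusk stayed at 0. Leaving out both pools of a timepoint gave 0 without ZT00, ZT12 or ZT14, 1 without ZT02, 2 without ZT22, and 1 without ZT10, which was Fgb, higher at dusk. The cause was not tested. Midday against midnight gave 1218 calls and 346 with the GC trend removed (309 with the replicate block as well). The replicate block left the count at 3 and changed no call. The numbers did not pair the pools, since the replicate differences of 15 pairs of timepoints correlated between -0.10 and 0.34 (median 0.02). For the 50 named genes, 1756 values under alternatives stayed on their side of the threshold, 63 lost the call, 16 gained one and 0 changed the sign of a call. Intervals narrower than 1.5-fold were lacking mainly in genes with few reads, and with 6 pools per group smaller differences in such genes were not detectable. In genes with many reads smaller differences could also miss the FDR.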
